A study of Mus musculus with 6 samples.

Results

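The genes of 9 small leucine-rich proteoglycans (SLRPs) and of versican were followed in RNA-seq of mouse adult fibroblasts (MAFs), comparing senescent with control cells. The SLRP genes were *Dcn* (decorin), *Bgn* (biglycan), *Lum* (lumican), *Fmod* (fibromodulin), *Ogn* (osteoglycin), *Aspn* (asporin), *Prelp*, *Omd* (osteomodulin) and *Podn* (podocan), and *Vcan* encodes versican. They were picked from the table of counts by gene name, which gave 10 of 43346 genes, each name occurring once. The MAFs were primary cells from the ears of adult female C57BL/6J mice, wild type in all libraries, kept at 3% oxygen and used between passages 3 and 8. The 3 control samples had been sham irradiated. The 3 senescent samples were irradiated with x-rays at 20 Gy and cultured for another 21 days, and no such time was given for control cells in the sources used here. Both groups were exposed to 100 nM dexamethasone, a glucocorticoid, for 2 hours and collected 12 hours later, so that every value below is from cells after dexamethasone. The labels do not say whether replicates came from separate cultures or animals, and p-values therefore measure the spread between these samples, which may be technical.

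SLRPs are secreted proteins built from leucine-rich repeats, and most carry chondroitin, dermatan or keratan sulfate chains. They bind collagen fibrils and set their diameter and spacing, and several of them also bind growth factors of the TGF-β family or pattern-recognition and tyrosine kinase receptors. Versican is a much larger chondroitin sulfate proteoglycan that binds hyaluronan and is abundant in provisional, cell-rich matrix, and dermal fibroblasts are a usual source of both kinds of protein.

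Total counts per library were between 50288454 and 82229553, and 3 counts, the most that a count of 0 allows, stood for 0.0355 to 0.0613 CPM (counts scaled to library size). Senescent replicate 3 stood apart from the other senescent libraries. Its median squared difference from them was 18.5 and 24.6 times what counting error gives, whereas that between senescent replicates 1 and 2 was 2.24 times, and those between control replicates were 1.77 to 5.33 times. Of 7 fibroblast markers, 5 fell, *Thy1* rose and *Pdgfrb* did not pass the test, and their summed level was between 13709 and 15478 CPM in control and between 3495 and 4599 CPM in senescent cells. Of 10 cartilage markers such as *Col2a1* and *Acan*, 9 were tested and all 9 fell, from a summed level between 5148 and 5671 CPM in control to between 292 and 372 CPM in senescent cells. Cartilage cells and skin fibroblasts both express several SLRPs, and the part of the cartilage signal in the differences below was not tested. Of 4 tenocyte markers, 2 rose and 2 fell. Their sums were low, between 33.5 and 36.1 CPM in control and between 17.5 and 21.01 CPM in senescent cells.

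Among the 10 genes, decorin, podocan, lumican and biglycan RNAs were higher in senescent cells, and fibromodulin, asporin, osteoglycin and versican RNAs were lower. The largest difference was the rise of *Dcn*, 11.3-fold, and the largest fall was that of *Fmod*, 3.58-fold. All 10 genes passed the filter on low counts, and 4 were called higher and 4 lower at an adjusted p under 0.05 (quasi-likelihood F-test of edgeR, Benjamini-Hochberg adjustment over 17589 genes). In the same comparison 36.2% of all tested genes were called higher and 34.1% lower, so that these counts of members are close to the background. With the limit given in the study's methods (log2 fold change beyond 1 in either direction at an unadjusted p under 0.05), 2 members were higher, *Dcn* and *Podn*, against 17.8% of all tested genes, and 2 were lower, *Fmod* and *Aspn*, against 12.3%. The study's results name a stricter p limit for this comparison. *Podn* and *Aspn* did not pass it, at unadjusted p = 7.57e-05 and 2.65e-05 in the quasi-likelihood F-test of edgeR. The groups did not overlap for 5 members that were higher and 4 that were lower, and the same held for 38.4% and 37.0% of all tested genes. The median log2 fold change was -0.05 over the 10 members and 0.01 over all tested genes. The libraries are bulk RNA, in which fewer cells of a type and less RNA per cell cannot be told apart.

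**Figure D1:**
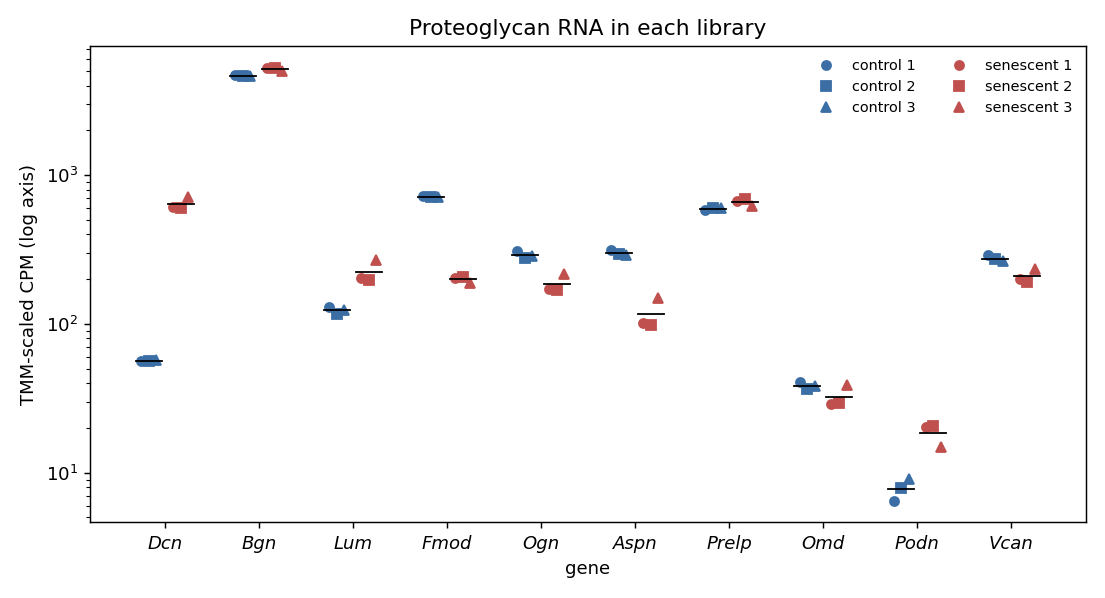
Level of the 10 RNAs in each library, in TMM-scaled CPM on a log axis. Points are the libraries, with the replicate number given by the shape, and bars are group means (n = 3). *Dcn* went from a mean of 56.6 to 642 CPM and *Fmod* from 715 to 200 CPM. Senescent replicate 3 lay apart from the other 2 senescent libraries for *Dcn*, *Lum*, *Aspn*, *Ogn*, *Omd*, *Podn* and *Vcan*, among others.

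Decorin and biglycan carry chondroitin or dermatan sulfate chains, and both bind TGF-β. *Dcn* (chr10:97479500-97518162, mm10) was at 56.3, 56.4 and 57.0 CPM in control replicates 1, 2 and 3, and at 607, 602 and 718 CPM in senescent replicates 1, 2 and 3. Every senescent library was far above every control library, and the control libraries were nearly level. Senescent replicate 3 was highest and lay apart from the other senescent libraries. The means were 56.6 ± 0.376 and 642 ± 65.2 CPM (SD, n = 3), a log2 fold change of 3.50 (SE 0.08, 95% interval 3.31 to 3.70, adjusted p = 3.18e-08 from the quasi-likelihood F-test of edgeR after Benjamini-Hochberg adjustment). This log2 fold change was higher than that of 95.4% of all tested genes.

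*Bgn* (chrX:73483602-73495933) had the highest level per kilobase of the 10 and differed little. It was at 4715, 4661 and 4612 CPM in the control libraries and at 5283, 5266 and 5015 CPM in the senescent libraries. The groups did not overlap, but the gap between them was small beside the level. The means were 4662 ± 51.5 and 5188 ± 150 CPM, a log2 fold change of 0.15 (SE 0.05, edgeR adjusted p = 0.0224). The call of *Bgn* was lost in 7 of 12 alternatives, among them those without any one of the control replicates or of senescent replicates 1 and 2, where the edgeR adjusted p was between 0.0582 and 0.114, while without senescent replicate 3 it was 1.65e-05.

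Lumican, fibromodulin, PRELP and osteomodulin are collagen-binding SLRPs of a class in which most members carry keratan sulfate chains. *Lum* (chr10:97565501-97572703) was at 130, 117 and 124 CPM in control and at 204, 197 and 268 CPM in senescent cells. All senescent libraries were above the control libraries, with senescent replicate 3 highest. The means were 124 ± 6.44 and 223 ± 39.1 CPM, a log2 fold change of 0.85 (SE 0.12, edgeR adjusted p = 0.000368).

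*Fmod* (chr1:134037254-134048277) went the other way. Its values were 720, 717 and 708 CPM in control and 203, 208 and 188 CPM in senescent cells. Both groups were tight, and senescent replicate 3 was close to the other senescent libraries for this gene. The means were 715 ± 6.03 and 200 ± 10.2 CPM, a log2 fold change of -1.84 (SE 0.06, edgeR adjusted p = 1.03e-07).

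*Prelp* (chr1:133910304-133921414), which encodes a heparin-binding SLRP of connective tissue, was at 585, 603 and 599 CPM in control and at 673, 689 and 617 CPM in senescent cells. The senescent libraries all lay above the control libraries, the lowest of them only slightly. The means were 596 ± 9.60 and 660 ± 37.6 CPM, and the log2 fold change of 0.15 (SE 0.06, 95% interval 0.01 to 0.29) did not pass the test (edgeR adjusted p = 0.0541). Without senescent replicate 3 it passed, at a log2 fold change of 0.20 with an edgeR adjusted p of 4.12e-05.

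*Omd* (chr13:49582766-49592609), whose product is known from bone and tooth matrix, was at 40.9, 36.3 and 38.1 CPM in control and at 29.0, 29.2 and 38.8 CPM in senescent cells. Senescent replicate 3 lay within the control range and the other senescent libraries below it, so the groups overlapped. The log2 fold change was -0.25 (SE 0.12, 95% interval -0.53 to 0.03, edgeR adjusted p = 0.101), and -0.39 without senescent replicate 3 (edgeR adjusted p = 1.51e-05).

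Asporin is the SLRP closest in sequence to decorin and biglycan. It carries a run of aspartic acid residues and binds collagen and TGF-β, and osteoglycin is found in bone, vessel wall and skin. *Aspn* (chr13:49544443-49567557) was at 316, 296 and 293 CPM in control and at 101, 99.0 and 150 CPM in senescent cells. The groups were well apart, with senescent replicate 3 nearest to control. The means were 302 ± 12.7 and 117 ± 28.7 CPM, a log2 fold change of -1.37 (SE 0.15, edgeR adjusted p = 0.00011), and it was -1.58 without senescent replicate 3.

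*Ogn* (chr13:49608071-49624500) fell less than *Aspn*. It was at 311, 279 and 288 CPM in control and at 173, 168 and 217 CPM in senescent cells. The groups did not overlap, and senescent replicate 3 was again nearest to control. The means were 292 ± 16.4 and 186 ± 26.8 CPM, a log2 fold change of -0.65 (SE 0.10, edgeR adjusted p = 0.000705).

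Podocan is an SLRP described in vessel wall and as a collagen-binding protein that slows cell growth. *Podn* (chr4:108014791-108096445) had the lowest level per kilobase of the 10, with values of 6.49, 7.85 and 9.01 CPM in control and at 20.3, 20.5 and 14.8 CPM in senescent cells. All senescent libraries were above control, senescent replicate 3 least. The means were 7.78 ± 1.26 and 18.5 ± 3.24 CPM, a log2 fold change of 1.25 (SE 0.16, edgeR adjusted p = 0.000255).

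*Vcan* (chr13:89655312-89742509) was at 291, 272 and 263 CPM in control and at 199, 192 and 234 CPM in senescent cells. The groups did not overlap, and the nearest libraries were control replicate 3 and senescent replicate 3. The means were 275 ± 14.3 and 208 ± 22.3 CPM, a log2 fold change of -0.40 (SE 0.09, edgeR adjusted p = 0.00342).

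**Figure D2:**
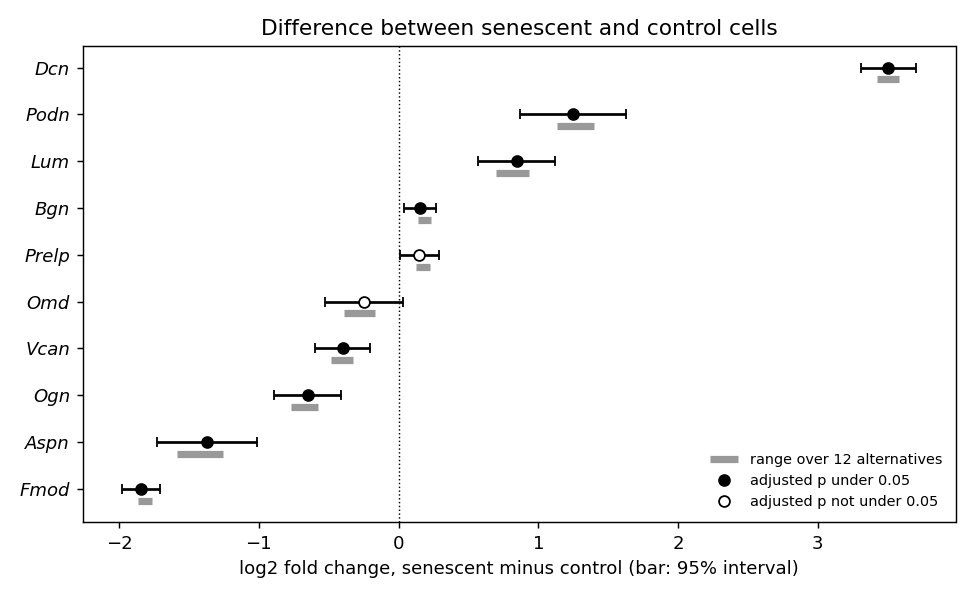
Log2 fold change of the 10 RNAs, senescent minus control, with the 95% interval as a bar, and below it in grey the range over 12 alternative settings. Filled points had an adjusted p under 0.05 (quasi-likelihood F-test of edgeR). The fold changes ran from 3.50 for *Dcn* to -1.84 for *Fmod*, and no alternative turned the direction of any gene.

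Counts were next divided by the gene length in the table, in kilobases of exon, to set the levels of different genes side by side. In control cells the order by CPM per kilobase was *Bgn* (764 ± 8.44), *Fmod* (216 ± 1.82), *Prelp* (165 ± 2.65), *Aspn* (129 ± 5.43), *Ogn* (115 ± 6.46), *Lum* (59.8 ± 3.101), *Dcn* (27.2 ± 0.181), *Omd* (24.7 ± 1.48), *Vcan* (19.0 ± 0.986) and *Podn* (1.82 ± 0.295). No neighbours in this order overlapped between libraries. In senescent cells the order by CPM per kilobase was *Bgn* (851 ± 24.7), *Dcn* (308 ± 31.3), *Prelp* (183 ± 10.4), *Lum* (107 ± 18.9), *Ogn* (73.3 ± 10.5), *Fmod* (60.4 ± 3.08), *Aspn* (49.7 ± 12.2), *Omd* (20.8 ± 3.60), *Vcan* (14.4 ± 1.54) and *Podn* (4.34 ± 0.760). Only *Fmod* and *Aspn* overlapped there as neighbours. By these lengths *Dcn* went from rank 7 to rank 2, and *Fmod* from rank 2 to rank 6. The table's length differed from the GENCODE M21 annotation for some genes, above all for *Dcn*, with 2084 bases in the table and 5838 bases over all annotated exons, and for *Omd*, with 1556 and 2249 bases. With the annotated exon length, an alternative chosen after seeing the data, *Dcn* was at 9.70 CPM per kilobase and rank 9 in control and at 110 CPM per kilobase and rank 3, below *Prelp*, in senescent cells. With the length of 1 coding transcript, also chosen after seeing the data, *Dcn* had rank 7 and rank 2, and *Omd* and *Vcan* changed places in both groups. The ranks of *Bgn*, *Fmod*, *Aspn*, *Ogn*, *Lum* and *Podn* were kept in both groups with either length.

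As a share of the summed CPM per kilobase of the 10 genes, with the table's lengths, *Bgn* made up 50.2% ± 0.299 in control and 50.9% ± 2.64 in senescent cells. The share of *Dcn* was 1.79% ± 0.0354 in control and 18.4% ± 1.42 in senescent cells, and that of *Fmod* was 14.2% ± 0.143 and 3.62% ± 0.265. These shares depended on the length used. With the annotated exon length, *Dcn* made up 0.653% ± 0.0129 in control and 7.58% ± 0.686 in senescent cells. With 1 coding transcript it made up 1.20% ± 0.0221 and 12.1% ± 1.22, *Fmod* 8.52% ± 0.0612 and 2.13% ± 0.112, and *Bgn* 71.7% ± 0.217 and 71.3% ± 2.15. The share of *Dcn* was higher and that of *Fmod* lower in senescent cells with each of the 3 lengths. The 10 genes together held 0.680% to 0.702% of all counts of a library in control and 0.765% to 0.772% in senescent cells, a sum of counts that does not use gene length.

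**Figure D3:**
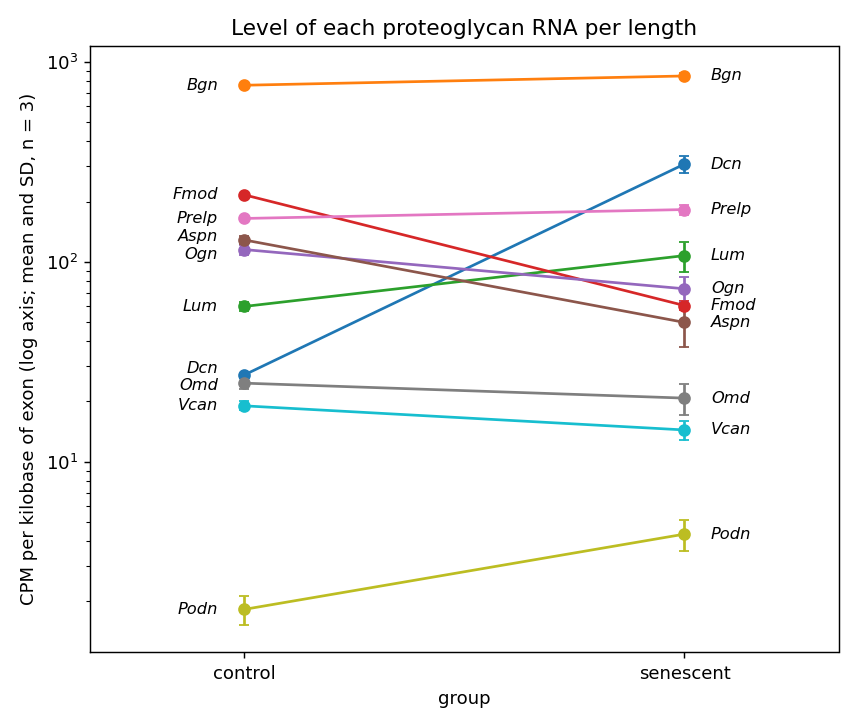
Mean level of the 10 RNAs in each group in CPM per kilobase of exon (lengths of the table of counts) on a log axis, with SD (n = 3). Lines join the groups of 1 gene. *Bgn* was highest in both groups, at 764 and 851, *Dcn* crossed from 27.2 to 308, and *Fmod* from 216 to 60.4.

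Ratios of the counts of a pair of genes within a library do not depend on how libraries are scaled, and 6 pairs were compared. The log2 ratio of *Bgn* to *Dcn* was 6.39, 6.37 and 6.34 in control and 3.12, 3.13 and 2.81 in senescent libraries. This count ratio, which is not corrected for length, was lower in all senescent than in all control libraries. The mean log2 ratio differed by -3.35 between senescent and control cells. For *Vcan* over *Dcn*, the mean log2 ratio was 2.28 ± 0.0824 in control and -1.63 ± 0.0222 in senescent cells. The sign of this log2 ratio was positive in each control library and negative in each senescent library.

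The pair of *Prelp* and *Fmod* had log2 ratios of -0.30, -0.25 and -0.24 in control and 1.73, 1.73 and 1.71 in senescent libraries. These senescent libraries differed by only 0.00936 (SD) around a mean of 1.72, so that senescent replicate 3 did not stand apart in this ratio. The mean log2 ratio of *Lum* to *Dcn* was 1.13 ± 0.0766 in control and -1.54 ± 0.101 in senescent cells. That of *Aspn* to *Ogn* was 0.05 ± 0.0360 and -0.69 ± 0.136, and that of *Omd* to *Ogn* was -2.93 ± 0.0111 and -2.53 ± 0.0462. The groups did not overlap in any of the 6 pairs, and the share of other gene pairs without overlap was not counted. The pairs of *Bgn*, *Lum* and *Vcan* all share *Dcn*. The ratios thus restate changes of single members given above and are not separate evidence. In the exact permutation test (two-sided, 3 against 3) each pair had p = 0.1, the smallest that the design allows, and the adjusted p was also 0.1.

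Most of these genes lie in groups on the chromosomes. *Dcn* and *Lum* are neighbours on the same strand of chromosome 10, 47.3 kb apart, and *Kera* and *Epyc*, both SLRP genes, lie beyond *Lum*. *Dcn* and *Lum* both rose, by log2 fold changes of 3.50 and 0.85, *Epyc* fell by 2.72 on the log2 scale (SE 0.21), and *Kera* was too low to test. On chromosome 13 the order is *Ecm2*, *Aspn*, *Omd* and *Ogn*, with 15.2 kb between *Aspn* and *Omd* and 15.5 kb between *Omd* and *Ogn*. *Ecm2*, whose product is an SLRP-like matrix protein, fell by 1.70 on the log2 scale (SE 0.11), and *Aspn* and *Ogn* fell as given above. On chromosome 1, *Optc*, *Prelp* and *Fmod* lie in this order, with 116 kb between *Prelp* and *Fmod*. *Optc*, which encodes opticin, rose by 1.73 on the log2 scale (SE 0.19) from 0.601 ± 0.115 CPM, a low level, while *Fmod* fell.

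**Figure D4:**
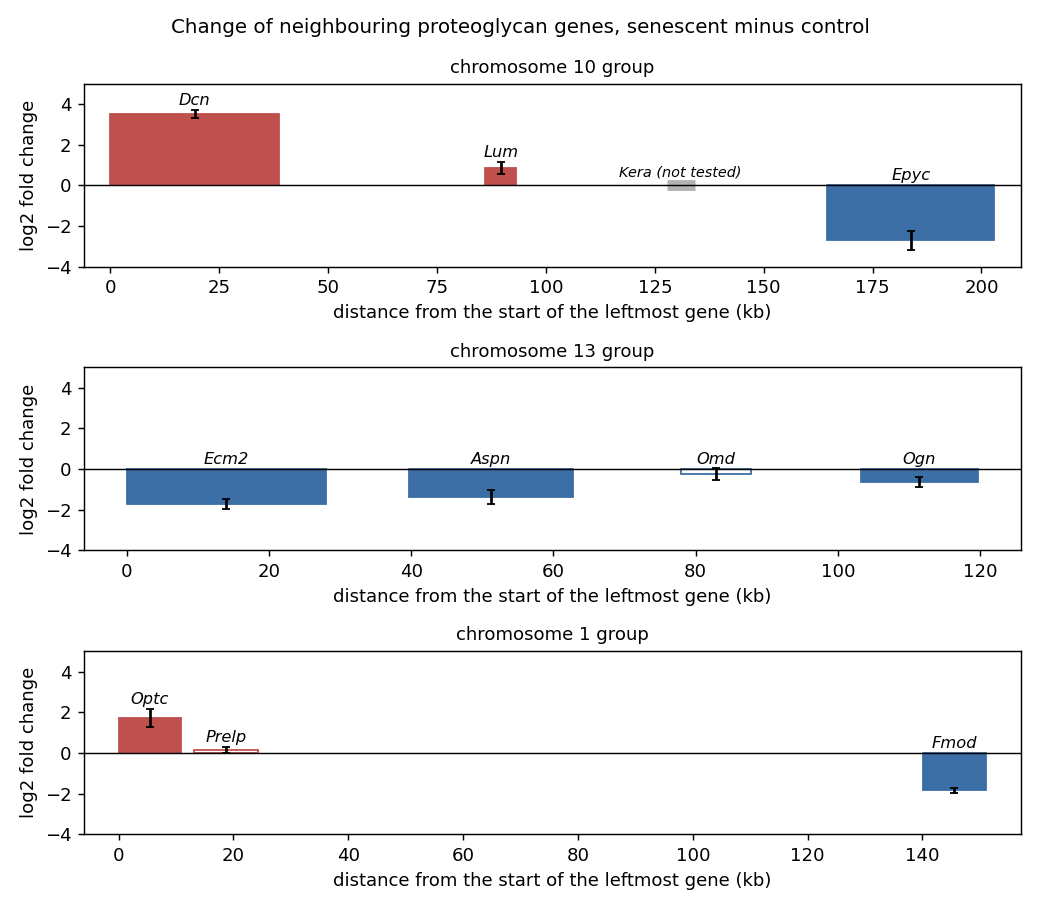
Log2 fold change of neighbouring SLRP genes (vertical axis, 95% interval as a bar) at their distance along the chromosome from the start of the leftmost gene in kb, for chromosomes 10, 13 and 1. Filled boxes span called genes, red higher and blue lower, open boxes genes not called, and the grey box *Kera*, which was not tested. *Dcn* and *Lum* were higher and *Epyc* lower on chromosome 10, *Ecm2*, *Aspn* and *Ogn* were lower on chromosome 13, and *Fmod* was lower beside *Prelp* on chromosome 1.

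The 250 bases before the RefSeq start of *Prelp*, *Fmod*, *Aspn*, *Omd* and *Ogn* are shown because the study concerns BMAL1, which binds E-boxes, and AP-1. *Prelp* and *Fmod* are neighbours of which *Fmod* fell and *Prelp* did not pass the test. *Aspn*, *Omd* and *Ogn* are neighbours of which *Aspn* and *Ogn* fell. The sequences are from RefSeq (GRCm38.p6), whose promoter table held 8 of the 10 genes and did not list *Dcn* and *Lum*. They are printed 5′ to 3′ in the direction of the gene, with the motifs found in capitals, at chr1:133921402-133921651 (minus strand) for *Prelp*, chr1:134037004-134037253 (plus strand) for *Fmod*, and chr13:49544193-49544442, chr13:49582212-49582461 and chr13:49607765-49608014 (plus strand) for *Aspn*, *Omd* and *Ogn*. The RefSeq start was the start in the table of counts for *Fmod* and *Aspn*. For *Prelp* it lay 13 bases inside the gene as the table gives it, so that the window covers those bases, and for *Omd* and *Ogn* it lay 304 and 56 bases before the table's start.
Prelp: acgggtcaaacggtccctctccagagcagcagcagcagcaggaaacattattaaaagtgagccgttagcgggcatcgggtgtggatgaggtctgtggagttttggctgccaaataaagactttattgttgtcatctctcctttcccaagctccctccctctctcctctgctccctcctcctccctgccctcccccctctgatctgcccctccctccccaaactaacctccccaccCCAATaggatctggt
Fmod: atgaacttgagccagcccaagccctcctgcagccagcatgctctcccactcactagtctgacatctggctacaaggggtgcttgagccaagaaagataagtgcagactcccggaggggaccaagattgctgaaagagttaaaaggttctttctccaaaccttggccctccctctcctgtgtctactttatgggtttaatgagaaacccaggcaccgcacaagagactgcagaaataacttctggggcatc
Aspn: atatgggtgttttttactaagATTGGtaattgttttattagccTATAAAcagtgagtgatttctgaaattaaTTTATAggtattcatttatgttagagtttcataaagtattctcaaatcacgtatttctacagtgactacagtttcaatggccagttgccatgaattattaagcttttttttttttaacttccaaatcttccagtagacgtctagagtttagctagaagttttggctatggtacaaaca
Omd: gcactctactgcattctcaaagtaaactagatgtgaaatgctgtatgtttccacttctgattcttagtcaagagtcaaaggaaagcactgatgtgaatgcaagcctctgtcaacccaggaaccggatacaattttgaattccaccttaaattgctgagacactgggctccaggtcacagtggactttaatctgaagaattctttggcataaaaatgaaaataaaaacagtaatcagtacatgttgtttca
Ogn: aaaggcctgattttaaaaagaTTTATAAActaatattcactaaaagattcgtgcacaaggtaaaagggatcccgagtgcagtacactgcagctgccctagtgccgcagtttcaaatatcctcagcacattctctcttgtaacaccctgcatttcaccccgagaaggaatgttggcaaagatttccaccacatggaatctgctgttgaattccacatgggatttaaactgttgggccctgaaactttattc

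Capitals mark TATA boxes (TATAAA, reverse TTTATA) and CCAAT boxes (CCAAT, reverse ATTGG). Both strands were searched for these, for the AP-1 site TGAGTCA, the E-box CACGTG and the GC box GGGCGG. Neither the AP-1 site nor the E-box was in any of the 9 windows of the 8 genes (*Podn* has 2), and among the 32851 promoters listed, 4.46% held the AP-1 site and 6.02% the E-box in a window of the same length. TATAAA was found in the windows of *Aspn*, 207 bases before the RefSeq start and on the other strand 178 bases before it, and of *Ogn*, 227 and 229 bases before the start in overlapping copies on the 2 strands, and in 12.4% of all promoters. CCAAT was found 15 bases before the RefSeq start of *Prelp*, across the start in the table of counts, and also in *Aspn* and *Vcan*, and in 33.8% of all promoters. The GC box was found in *Podn*, *Vcan* and *Bgn* and in 32.7% of all promoters. The 2 RefSeq starts of *Podn* lay 64491 and 65459 bases inside the gene as the table of counts gives it. The 2 windows of *Podn* thus do not lie before the start of the counted gene. The windows of *Fmod* and *Omd* held none of the motifs searched. These are matches of letters and not sites shown to be bound. The percentage of G and C was 55.6 for *Prelp*, 51.2 for *Fmod*, 30 for *Aspn*, 38.4 for *Omd* and 42.0 for *Ogn*, beside a median of 52.4 over all promoters.

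Other genes overlap some of the 10. *Cenpp*, a centromere gene on the opposite strand, spans *Aspn*, *Omd* and *Ogn*, shares 7 exon bases with *Aspn* and none with the others, and had 583 to 676 counts in control and 28 to 38 in senescent libraries. Its counts reached at most 31.3% of those of *Omd* and 4.14% of those of *Ogn*. *Gm15851*, on the opposite strand to *Prelp*, shares 350 exon bases with it, 9.68% of the exon bases of *Prelp*. At most 5 counts of *Gm15851* were found in a library. *Scp2* overlaps *Podn* on the same strand without shared exon bases. It was at 103 to 108 CPM in control and 77.7 to 85.4 CPM in senescent cells, and its counts reached at most 1664% of those of *Podn*. The strand setting of the counting was not given in the sources used here, and the part of the overlapping genes in the differences was not tested. The longest stretch that transcripts of 2 members shared was 50 bases, between *Bgn* and *Podn*, less than the read length of 100 bases.

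The genes whose pattern over the 6 libraries was most like that of 3 members were looked up among 12935 genes with a mean count of at least 100, by the root mean square difference of centred log2 CPM. For *Dcn* these were *Prkaa2* (0.0652), an AMPK subunit, and *Fgf2* (0.0744), a fibroblast growth factor, which went from 12.8 ± 0.914 to 141 ± 7.76 CPM. For *Bgn* they were *Uba1* (0.0166) and *Synrg* (0.0180). For *Vcan* they were *Atm* (0.0127), a DNA damage kinase, which went from 75.5 ± 3.46 to 57.3 ± 6.19 CPM, and *Papd4* (0.0134).

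The genes around these proteoglycans were described by 8 lists, to be read beside the 36.2% of all tested genes that were called higher, the 34.1% called lower and the 70.3% called in either direction. Of 9 other SLRP family genes, 8 were tested, 4 rose and 4 fell, with a median log2 fold change of 0.27, beside 0.01 over all tested genes. Those that rose were *Tsku*, *Chad*, *Optc* and *Nyx*. *Chad* and *Nyx* were low, at 1.25 ± 0.190 and 0.772 ± 0.0651 CPM in senescent cells. *Tsku* (tsukushi, which binds growth factors) went from 28.2 ± 2.38 to 90.3 ± 15.6 CPM (log2 fold change 1.68, SE 0.13). Those that fell were *Ecm2*, *Podnl1*, *Epyc* and *Chadl*. *Podnl1*, the gene most related to podocan, fell by 2.32 on the log2 scale (SE 0.17) from 3.23 ± 0.486 CPM, whereas *Podn* rose.

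Versican belongs to the hyalectans, which bind hyaluronan with the help of link proteins. Of 7 other hyalectan and link protein genes, 6 were tested, 3 rose (*Hapln4*, *Ncan* and *Bcan*), 2 fell and *Hapln3* did not pass the test (log2 fold change 0.50, edgeR adjusted p = 0.301), with a median log2 fold change of 0.76. *Acan* (aggrecan, the cartilage hyalectan) fell from 1853 ± 40.6 to 131 ± 3.02 CPM, by 3.82 on the log2 scale (SE 0.06), and *Hapln1*, the cartilage link protein, fell by 2.81 (SE 0.12). Both also stand in the list of cartilage markers. *Ncan* had 0 counts in every control library and was at least 9.52-fold higher in senescent cells, against 3 counts in each library. In senescent cells *Ncan* and *Bcan* reached 0.545 ± 0.179 and 3.15 ± 0.861 CPM, low levels beside *Acan*.

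Chondroitin and dermatan sulfate chains are started by xylosyltransferases, polymerised by chondroitin synthases and then sulfated from the donor PAPS. Of 27 tested genes of this pathway, 6 rose, 10 fell and 11 did not pass the test, with a median log2 fold change of -0.07. The 59.3% called was below the 70.3% over all tested genes. *Xylt1*, which adds the first xylose, fell by 2.04 on the log2 scale (SE 0.09), *Csgalnact1*, which starts chain elongation, by 1.78 (SE 0.08), and *Papss2*, a PAPS synthase, by 1.45 (SE 0.06). The genes that rose included *Chsy3*, a chondroitin synthase, from 3.54 ± 0.596 to 12.9 ± 0.856 CPM, *Chst11*, a chondroitin sulfotransferase (log2 fold change 0.54, SE 0.05), and *Ugdh*, which makes UDP-glucuronate (0.47, SE 0.07). Without senescent replicate 3, 10 genes of this list rose in place of 6. The dermatan sulfate epimerase genes *Dse* and *Dsel* had log2 fold changes of 0.06 and -0.04 and did not pass the test.

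Of 9 tested genes of keratan sulfate synthesis, the chain of lumican and fibromodulin, 4 rose and 4 fell (median log2 fold change -0.12). The sulfotransferase genes *Chst1* and *Chst2* differed in direction, with *Chst1* rising from 7.08 ± 0.656 to 16.0 ± 3.32 CPM and *Chst2* falling from 25.8 ± 1.31 to 9.81 ± 0.535 CPM. *B4galt4* (0.63, SE 0.07) and *B3gnt2* (0.46, SE 0.07) rose on the log2 scale, *Chst5* fell by 2.18 (SE 0.33) and *B4galt2* fell by 0.73 (SE 0.13). *Chst5* was low, at 0.470 ± 0.0514 CPM in control cells.

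All 14 tested genes of proteases known to cut versican or SLRPs passed the test, beside 70.3% of all tested genes, 7 higher and 7 lower (median log2 fold change -0.01). *Mmp3* (stromelysin, which can cut decorin) rose from 9.89 ± 0.261 to 451 ± 46.1 CPM, and *Mmp13* (a collagenase) from 0.134 ± 0.0413 to 16.4 ± 2.54 CPM. Among the versican-cutting ADAMTS proteases, *Adamts1* rose from 68.55 ± 0.799 to 157 ± 7.65 CPM, while *Adamts9* fell by 1.71 on the log2 scale (SE 0.07), *Adamts15* by 1.55 (SE 0.13) and *Adamts20* by 4.03 (SE 0.17).

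The collagens that SLRPs bind had a median log2 fold change of -1.87. Of 11 tested genes, 10 fell, and *Col5a3* did not pass the test (log2 fold change -0.03). *Col14a1*, a collagen on the fibril surface, fell by 2.62 on the log2 scale (SE 0.07), *Col6a3*, of microfibrillar collagen VI, by 1.83 (SE 0.06) and *Col6a1* by 3.50 (SE 0.12). *Col1a1*, *Col1a2* and *Col3a1* are in this list and among the fibroblast markers.

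Of 17 tested genes of receptors and ligands that SLRPs or versican bind, 12 rose, 2 fell and 3 did not pass the test (median log2 fold change 0.80), beside 36.2% higher and 34.1% lower over all tested genes. *Kdr* of this list is also an endothelial marker, and the summed levels of macrophage and endothelial markers were higher in senescent cells (values below). Their part in the counts of this list was not tested. *Egfr*, a receptor of decorin, rose from 25.5 ± 0.271 to 82.2 ± 4.94 CPM, and *Cd44*, the hyaluronan receptor, from 338 ± 11.04 to 1297 ± 127 CPM. *Bmp2* rose from 0.0807 ± 0.0201 to 4.804 ± 0.163 CPM. *Tgfbr2*, a TGF-β receptor, fell by 0.27 on the log2 scale (SE 0.05), and *Met*, another receptor of decorin, by 0.34 (SE 0.09). *Tlr4*, a receptor of biglycan and decorin, rose by a log2 fold change of 1.33, and was named after its value had been seen.

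Of 16 tested genes of other cell-surface and matrix proteoglycans, 7 rose and 8 fell (median log2 fold change -0.36). *Prg4* (lubricin) rose from 14.9 ± 0.966 to 86.5 ± 4.09 CPM, *Gpc4* (glypican 4) from 29.5 ± 0.815 to 108 ± 4.63 CPM, and *Srgn* (serglycin, a proteoglycan of secretory granules) from 0.101 ± 0.00107 to 1.62 ± 0.0886 CPM. *Gpc3* fell by 1.20 on the log2 scale (SE 0.07), *Sdc1* (syndecan 1) by 0.96 (SE 0.11) and *Tgfbr3* (betaglycan) by 0.95 (SE 0.06). Markers of macrophages, which also express *Srgn*, had summed levels between 5.69 and 6.44 CPM in control and between 13.7 and 15.9 CPM in senescent cells, and their part in these differences was not tested.

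**Figure D5:**
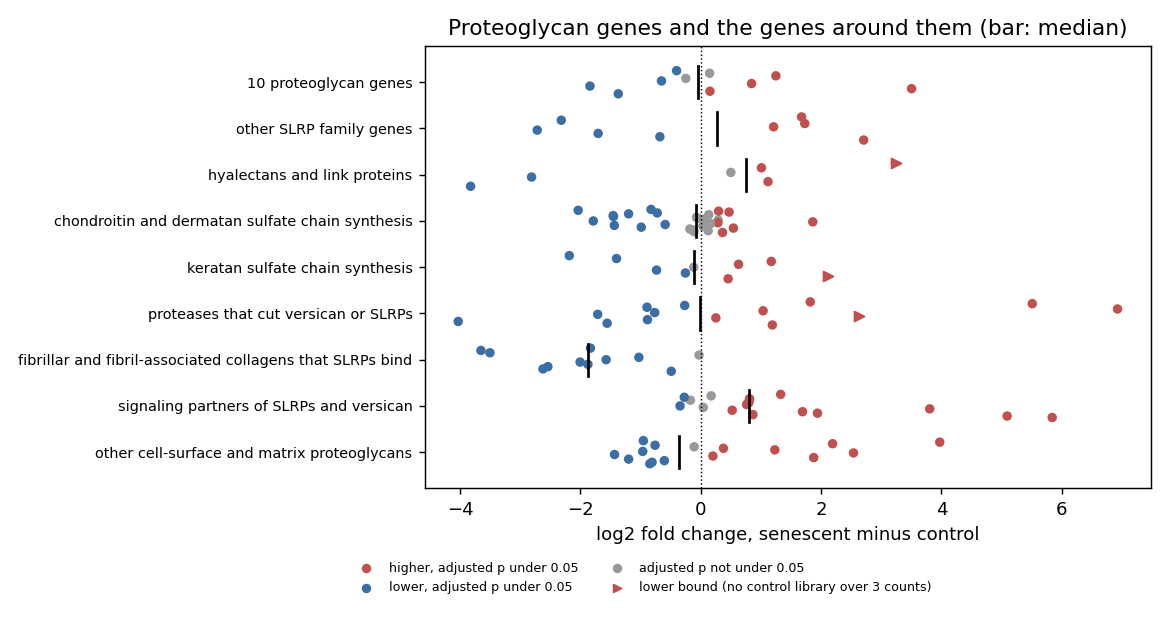
Log2 fold change, senescent minus control, of each tested gene of the 10 proteoglycans and of the 8 lists around them. Points are genes, red higher and blue lower at an adjusted p under 0.05 (quasi-likelihood F-test of edgeR), grey not called, and black bars are medians. Triangles are lower bounds for *Ncan*, *B3gnt7* and *Adamts8*, which had at most 3 counts in each control library. The collagens lay almost all below 0, with a median of -1.87, and 12 of the 17 signaling partners were called higher, with a median of 0.80.

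Markers of the remaining cell types were low in both groups. Summed levels in control and senescent cells were 4.11 to 4.54 and 5.02 to 5.48 CPM for osteoblasts, 15.9 to 16.6 and 12.2 to 13.5 CPM for keratinocytes, 2.43 to 2.83 and 7.52 to 8.34 CPM for endothelial cells, 15.5 to 20.9 and 14.9 to 27.6 CPM for skeletal muscle, 4.10 to 4.39 and 3.29 to 3.75 CPM for Schwann cells and melanocytes, and 0.0817 to 0.1002 and 0.261 to 0.341 CPM for adipocytes. No marker was at 0 in all libraries, and *Myod1* of muscle and *Sox10* of Schwann cells were at 0 in every control library.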

How the data were processed

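RNA-seq libraries of 3 control and 3 senescent MAF samples were used, with groups and replicate numbers taken from the sample labels. The authors used the MAPRSeq pipeline v3.1.4, in which STAR mapped paired reads of 100 bases to mm10 and Subread counted them per gene, and they deposited whole-number counts per gene without normalization. The strand setting of the counting and the handling of multimapping reads are not given in the sources used here. Total counts per sample were 50288454 to 82229553, which sets the precision of low genes.

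Genes with enough deposited counts were selected by filterByExpr (17589 genes), TMM scaled the libraries, and the groups were set against each other in the two-sided quasi-likelihood F-test of edgeR 4.0.16 in R 4.3.3, in its robust form, with group as the only term. Benjamini-Hochberg adjustment ran over all tested genes, and genes were called at an adjusted p under 0.05. The steps were tested on simulated data. Of genes changed by 1 and by 2 on the log2 scale, 94 of 100 and 100 of 100 were recovered, with 7 false calls. All simulated libraries had the same spread, so that the simulation does not cover a library that stands apart as senescent replicate 3 does. Levels are TMM-scaled CPM, per kilobase where so stated, with the length of the table. A fold against a group with at most 3 counts in each library is a lower bound against 3 counts in each. SE is the log2 fold change divided by the root of the F statistic.

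The named genes are the 10 members, the 3 called genes with the smallest p in each direction of each list, the 2 genes most like *Dcn*, *Bgn* and *Vcan*, and markers that a result touches. *Nyx*, *Chadl*, *Hapln3*, *Col5a3*, *Dse*, *Dsel*, *Tlr4* and the overlapping genes were named after their values had been seen. The members and lists were chosen with earlier results of these data known, and the lists were written down for this purpose. Alternatives were RLE scaling, library size alone, 2 other filters, DESeq2 1.42.0, a replicate block, leaving out each library and, added after seeing the data, 2 other gene lengths from GENCODE M21.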

Additional observations from a re-analysis of the deposited data

How the results depend on the processing

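No direction turned among the 156 alternative values of fold changes and ratios. Of 450 alternatives in all, which include counts, ranks and shares, 411 were rated as kept. Among these were 106 of 120 fold changes of the 10 genes, 191 of 192 list counts and 36 of 36 ratios. For fold changes this meant the same direction and call, for ranks the same rank, and for ratios and shares a value within the SD. For counts it meant a number within a set factor of the main one, so that kept counts could differ. The members called higher were 3 or 5 in place of 4 in each of the 12 alternative settings, and were rated as kept. *Bgn* was no longer called without a filter (log2 fold change 0.15, adjusted p = 0.0584 from the quasi-likelihood F-test of edgeR), and ranged from 0.14 to 0.19 when 1 library was left out. *Omd* was called without a filter (-0.26, edgeR adjusted p = 0.0489), and ranged from -0.39 to -0.17 when 1 library was left out. *Prelp* was called with RLE scaling (0.17, edgeR adjusted p = 0.0329), library size alone (0.23, 0.00918), at least 10 counts in every library (0.20, 0.0182) and DESeq2 (0.17, 0.0353), and ranged from 0.12 to 0.20 when 1 library was left out. Members called were 2 higher and 2 lower with the limit of the study's methods in place of 4 and 4. The 6 chondroitin and dermatan sulfate genes called higher became 6 to 10 when 1 library was left out. With 1 coding transcript as length, added after seeing the data, *Vcan* had rank 8 and *Omd* rank 9 in both groups, and the shares in control and senescent cells were 71.7% and 71.3% (*Bgn*), 1.20% and 12.1% (*Dcn*) and 8.52% and 2.13% (*Fmod*). With all annotated exons, also added later, ranks were 9 and 3 (*Dcn*), 7 and 8 (*Vcan*), 8 and 9 (*Omd*) and 3 and 2 (*Prelp*), and shares 51.5% and 58.7% (*Bgn*), 0.653% and 7.58% (*Dcn*) and 14.6% and 4.17% (*Fmod*). The correlation of deviations from the group mean was -0.45, 0.34 and -0.31 for samples of the same replicate number. With 3 libraries in each group, these values cannot decide whether the replicate numbers pair the samples. With a replicate block *Bgn* was not called (0.15, edgeR adjusted p = 0.0765), 3 members were called higher and 4 lower, and 11624 genes were called in place of 12365. The cause of these changes was not tested. The 10 genes were all above the filter, while *Ncan*, *B3gnt7* and *Adamts8* were at or under 3 counts in control libraries. An effect of depth on the 10 genes was not tested.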
